A study of Mus musculus with 20 samples.

Results

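Immediate early and heat shock genes, the transcripts that cells raise first after a stimulus or a stress, were examined in the liver of 20 mice. The members were chosen by gene symbol from the table of unnormalised counts, and they are 10 of its 55487 genes. Of these, 6 are immediate early genes (Fos, Jun, Junb, Egr1, Ier2 and Atf3) and 4 are heat shock genes (Hspa1a, Hspa1b, Hsph1 and Dnajb1). The study asked how the source of dietary protein (fishmeal made from salmon by-products, salmon filet, beef) affects obese mice. Female C57BL/6J mice were given chow or a high-fat diet (HFD) from 8 weeks of age. The HFD-fed mice were then moved for 10 weeks to an HFD in which 50% of the protein came from fishmeal, salmon filet or beef, while the chow mice stayed on chow, and livers were taken at 28 weeks. The labels place 5 mice in the chow group, 5 in the fishmeal group, 6 in the salmon group and 4 in the beef group, each with 1 liver library. The labels give no modified allele, and no group was fed HFD without 1 of the 3 added proteins, so a difference between HFD and chow covers fat, protein source and all else that differed between the diets. Animals were sedated with isoflurane, bled from the heart and killed before the liver was frozen, in all groups alike, and the time of day of collection was not given in the sources used here.

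Immediate early genes are transcribed within minutes of a stimulus from factors already present in the cell, without new protein synthesis, and their transcripts are unstable. Fos, Jun and Junb encode subunits of the AP-1 transcription factor, Egr1 encodes a zinc finger transcription factor, Ier2 a small nuclear protein, and Atf3 a stress-induced factor of the ATF/CREB family. Heat shock genes are switched on by heat shock factor 1 when unfolded protein accumulates: Hspa1a and Hspa1b encode the inducible HSP70 chaperones, Dnajb1 encodes the HSP40 co-chaperone that delivers clients to HSP70, and Hsph1 encodes HSP110, a nucleotide exchange factor for HSP70. In liver, both kinds of gene are known to respond to feeding, circadian time, anaesthesia, handling and tissue removal.

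The sequences just upstream of the start sites were searched for control elements of immediate early and heat shock genes. RefSeq held a promoter window of 300 bases (250 before and 50 after the start site) for 8 of the 10 members, on GRCm38.p6. Heat shock elements were searched as GAANNTTC or TTCNNGAA, each of which reads the same on both strands. The core of the cyclic AMP response element was searched as TGACG or CGTCA, a pair that covers both strands. Heat shock elements were present in 15.1% and the core in 20.8% of all 32851 RefSeq windows of this length. Printed 5′ to 3′ on the strand of the gene, with matches in capitals, are the bases before the start site of Fos (chr12:85473640-85473889, plus strand), Junb (chr8:84978749-84978998, minus strand), Hspa1a (chr17:34972157-34972406, minus strand), Hspa1b (chr17:34959239-34959488, minus strand) and Hsph1 (chr5:149636347-149636586, minus strand), chosen as 2 AP-1 subunits that varied together and as the heat shock members that held a heat shock element. For Hsph1 the stretch stops 10 bases short of the RefSeq start site. The GENCODE annotation starts this gene farther upstream, at chr5:149636376, so the end of the printed stretch lies within the gene.
Fos: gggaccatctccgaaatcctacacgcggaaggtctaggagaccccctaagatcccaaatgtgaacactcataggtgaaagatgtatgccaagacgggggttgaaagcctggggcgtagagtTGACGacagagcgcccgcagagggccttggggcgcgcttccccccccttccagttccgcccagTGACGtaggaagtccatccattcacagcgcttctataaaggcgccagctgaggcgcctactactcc
Junb: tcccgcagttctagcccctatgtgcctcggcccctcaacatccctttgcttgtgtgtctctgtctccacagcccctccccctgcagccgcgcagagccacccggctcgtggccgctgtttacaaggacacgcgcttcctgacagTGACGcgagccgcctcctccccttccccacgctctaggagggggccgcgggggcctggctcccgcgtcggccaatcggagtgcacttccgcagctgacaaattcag
Hspa1a: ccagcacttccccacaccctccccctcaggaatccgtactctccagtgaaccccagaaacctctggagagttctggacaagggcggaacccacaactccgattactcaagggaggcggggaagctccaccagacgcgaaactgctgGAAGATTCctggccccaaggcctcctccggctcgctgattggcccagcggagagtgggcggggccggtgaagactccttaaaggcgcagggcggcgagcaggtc
Hspa1b: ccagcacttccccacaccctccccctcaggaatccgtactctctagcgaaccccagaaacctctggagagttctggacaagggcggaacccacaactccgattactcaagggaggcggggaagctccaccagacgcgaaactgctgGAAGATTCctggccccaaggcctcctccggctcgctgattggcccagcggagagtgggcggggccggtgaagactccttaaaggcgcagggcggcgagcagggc
Hsph1: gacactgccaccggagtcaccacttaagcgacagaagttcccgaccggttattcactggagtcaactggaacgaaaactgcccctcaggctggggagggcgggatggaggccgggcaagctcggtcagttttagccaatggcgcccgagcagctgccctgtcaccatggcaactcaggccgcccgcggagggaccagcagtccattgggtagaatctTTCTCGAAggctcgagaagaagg

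In the Fos window the core of the cyclic AMP response element began at positions -129 and -66 from the start site, and in the Junb window at position -106. Single matches to this core also stood in the Atf3 and Dnajb1 windows. A heat shock element began at position -104 of both Hspa1a and Hspa1b, whose 250 upstream bases were identical at 247 positions and different at 3. The Hsph1 window held 3 heat shock elements, of which 1 lay upstream of the RefSeq start site and 2 overlapping ones lay after it. The upstream one lay within the gene as annotated by GENCODE, and the other 2 lay outside the stretch printed. Jun also held a match to the heat shock element, and the window of Dnajb1, which is a heat shock gene, held none. The full cyclic AMP response element (TGACGTCA), the AP-1 site (TGAGTCA or TGACTCA), the EGR site (GCGTGGGCG or CGCCCACGC) and the CArG box stood in 1.79%, 5.2%, 0.612% and 1.63% of all windows and in no member's window. Egr1 and Ier2 had no window here, and bases farther than 250 before the start site were not searched. A match to these letters is a description of the window and was not tested as a binding site.

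Each library held between 42526234 and 70266136 reads assigned to genes. The samples from liver expressed the hepatocyte markers at a summed 80356 to 111279 CPM (a gene's counts relative to the library's total, scaled by TMM factors). In mouse 35 of the beef group, protein coding genes took 84.3% of the counts, against 93.2% to 95.6% in the other libraries. Mouse 31 is fed salmon according to its label but beef according to its column name, and it is kept here as labelled. The spread within groups, the correlations within groups and the gaps of single mice were computed only with mouse 31 in the salmon group. The study describes equal numbers of sequenced mice per diet group, which holds only with mouse 31 in the beef group. With mouse 31 moved to beef, the median of Fos was 1.71 CPM in salmon and 6.81 CPM in beef, that of Hsph1 43.8 and 46.7 CPM, and that of Dnajb1 15.8 and 16.8 CPM. Each library came from its own mouse, so each p-value measures the spread between individual mice.

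The members differed widely in level. On the scale of TPM (a gene's share of the library's transcripts, which also corrects for gene length), the medians over 20 mice were 25.6 for Egr1, 15.9 for Hsph1, 15.4 for Ier2, 13.3 for Dnajb1, 8.46 for Junb, 7.80 for Jun, 2.85 for Fos, 1.28 for Atf3, 1.01 for Hspa1b and 0.0665 for Hspa1a. The ranges over the mice of neighbours in this order overlapped, except those of Hspa1b (0.292 to 3.02 TPM) and Hspa1a (0 to 0.242 TPM). Egr1 alone ran from 2.12 to 109 TPM. Hsph1 and Dnajb1 kept narrow ranges of 10.4 to 34.1 TPM and 10.7 to 24.6 TPM. Hspa1a was close to undetected, with 0 to 19 counts per library.

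On GRCm38, Fos lies at chr12:85473890-85477273, Hsph1 at chr5:149614287-149636376 and Dnajb1 at chr8:83608193-83612653. Fos, the inducible subunit of AP-1, showed the widest range. In the chow mice it measured 0.420 CPM in mouse 1, 0.732 in mouse 2, 61.4 in mouse 5, 3.64 in mouse 7 and 25.7 in mouse 10. The fishmeal mice 12, 13, 14, 16 and 20 had 0.797, 1.75, 3.06, 1.17 and 12.1 CPM. In the salmon mice Fos ran from 1.34 through a median of 1.86 to 9.96 CPM, and in the beef mice 32, 35, 39 and 40 it was 0.830, 6.81, 10.2 and 6.09 CPM. The chow group thus held the 2 highest and the 2 lowest Fos values of the study, with the HFD-fed mice in between. The 20 libraries together spanned a 146-fold range, from 28 to 3496 counts.

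Jun, the partner of Fos in AP-1, was 5.97, 6.13, 63.9, 11.6 and 16.5 CPM in chow mice 1, 2, 5, 7 and 10. It was 5.26, 5.56, 9.42, 4.44 and 30.1 CPM in the fishmeal mice, in the order above. Salmon mice ranged from 5.32 through 9.08 to 40.8 CPM, and the beef mice had 5.51, 19.3, 20.7 and 10.6 CPM. In each group 1 or 2 mice stood well above the others, and all groups overlapped.

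Junb, a subunit that can replace Jun in AP-1, was 0.974, 2.46, 26.4, 5.44 and 11.04 CPM in the chow mice and 3.87, 6.32, 8.59, 2.14 and 16.5 CPM in the fishmeal mice. The salmon mice lay between 3.14 and 21.8 CPM with a median of 5.36, and the beef mice had 2.07, 16.9, 17.0 and 13.0 CPM. Mouse 1 was the lowest and mouse 5 the highest of all 20, both in the chow group.

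**Figure D1:**
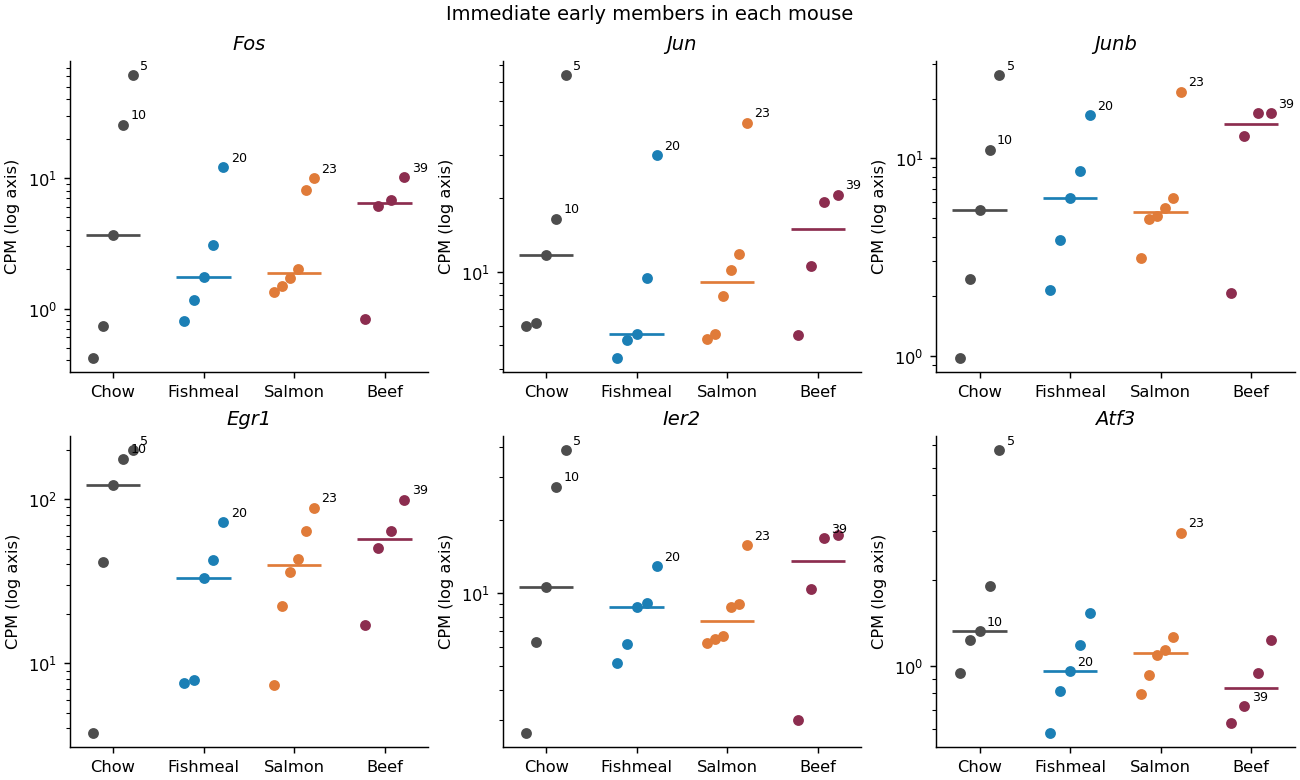
CPM on a log axis of the 6 immediate early members in each mouse (points) by diet group, with lines at group medians and the mouse number beside mice 5, 10, 20, 23 and 39. Chow mouse 5 is the highest of 20 mice in each panel, for example at 61.4 CPM for Fos, and the HFD groups each hold 1 or more raised mice.

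Egr1, a zinc finger factor induced by growth factor signalling, reached the highest level of the immediate early members. It was 3.76 CPM in chow mouse 1, 41.4 in mouse 2, 199 in mouse 5, 122 in mouse 7 and 177 in mouse 10. In the fishmeal mice it measured 7.87, 33.0, 42.3, 7.62 and 72.2 CPM, in the salmon mice 7.41 to 88.8 with a median of 39.8, and in the beef mice 17.1, 64.2, 99.6 and 50.5 CPM. No HFD-fed mouse reached the chow median of 122 CPM, but chow mouse 1 lay below all of them.

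Ier2 was 2.67, 6.30, 38.6, 10.6 and 27.4 CPM in the chow mice and 8.78, 9.13, 6.16, 5.15 and 12.9 CPM in the fishmeal mice. It ran from 6.25 through 7.69 to 15.7 CPM in the salmon mice and was 3.004, 17.3, 16.9 and 10.4 CPM in the beef mice. Atf3, which is induced by many cell stresses, was low throughout. It was 1.92, 0.944, 5.76, 1.228 and 1.325 CPM in the chow mice, 0.580 to 1.53 CPM in the fishmeal mice, 0.797 to 2.95 in the salmon mice and 0.627 to 1.24 in the beef mice. Mice 5 and 23 had the 2 highest Atf3 values, while mouse 10, second for Fos, Egr1 and Ier2, had 1.325 CPM.

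None of the 6 immediate early members was called in HFD versus chow, the comparison of the 15 HFD-fed mice with the 5 chow mice. A gene was called where its adjusted p was under 0.05 (edgeR quasi-likelihood test, Benjamini-Hochberg adjustment over all 17120 genes tested), which 9.75% of the genes met and 5.21% met as lower in HFD. Fos had a log2 fold change of -2.03 ± 0.72 (SE), with an edgeR adjusted p of 0.0779. The values were -0.996 ± 0.34 for Atf3, -1.31 ± 0.57 for Egr1 and -0.84 ± 0.40 for Ier2, with adjusted p of 0.0637, 0.155 and 0.194 in edgeR. Jun, at -0.69 ± 0.52, and Junb, at -0.06 ± 0.57, had edgeR adjusted p of 0.443 and 0.967. Before adjustment, 4 of the 6 had an edgeR p under 0.05, as did 4174 of all 17120 genes. DESeq2 called Atf3, with an adjusted p of 0.0365, beside 2161 of 17120 genes. Limma on log2(TPM + 1), run on the same mice as an alternative, called none of the 6. The log2 fold change there was -0.77 for Fos, -0.54 for Atf3, -0.91 for Egr1, -0.46 for Ier2, -0.45 for Jun and 0.24 for Junb. The limma adjusted p ran from 0.133 to 0.835.

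Leaving out chow mouse 5 moved the edgeR fold changes of the 6 members toward or past 0. Without mouse 5, the log2 fold change was -0.76 for Fos, -0.97 for Egr1, -0.30 for Ier2 and -0.28 for Atf3, and it turned to 0.35 for Jun and 0.84 for Junb. Over the 6 members the median log2 fold change moved from -0.92 with all mice to -0.29 without mouse 5, while the median over all genes tested was close to 0 at 0.00499. Leaving out chow mouse 1, the lowest for Fos, moved Fos to -2.35, at an edgeR adjusted p of 0.0470. Atf3 reached an edgeR adjusted p of 0.0414 without chow mouse 2 and 0.0134 without salmon mouse 23.

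**Figure D2:**
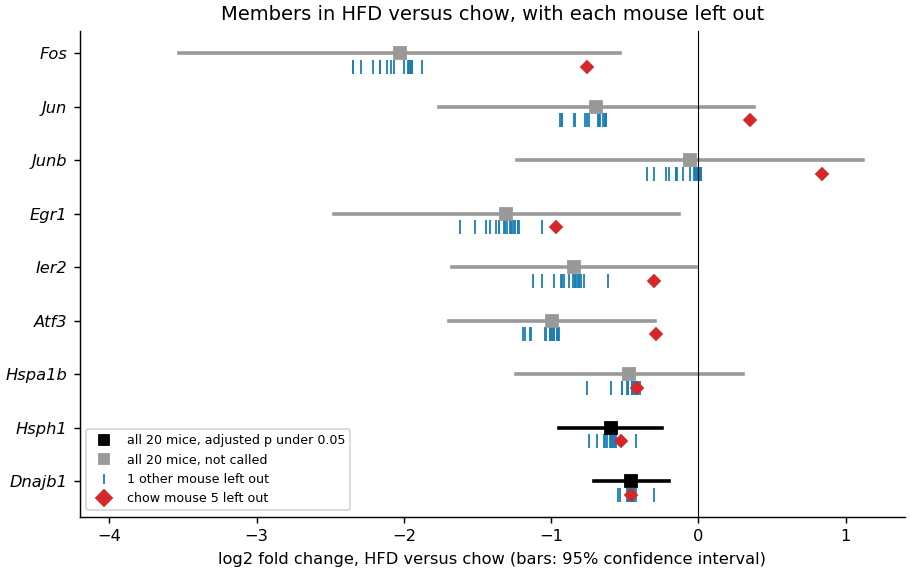
Log2 fold change of 9 members in HFD versus chow (squares, black where called), with unadjusted 95% confidence intervals and, below each, the estimates with 1 mouse left out (ticks) or chow mouse 5 left out (diamonds). Without mouse 5, Jun moves to 0.35 and Junb to 0.84, while Hsph1 and Dnajb1 stay below 0 at -0.53 and -0.46.

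Among the heat shock members, Dnajb1 and Hsph1 fell in HFD versus chow. Dnajb1, the HSP40 co-chaperone, was 31.3, 16.5, 22.5, 17.5 and 24.9 CPM in chow mice 1, 2, 5, 7 and 10. The fishmeal mice had 20.0, 14.3, 16.2, 17.3 and 15.5 CPM, the salmon mice 13.6 to 19.1 with a median of 15.4, and the beef mice 13.2, 20.7, 16.8 and 18.3 CPM. All 15 HFD-fed mice lay below the chow median of 22.5 CPM, although chow mice 2 and 7 lay within the HFD range. Dnajb1 fell in HFD versus chow, with a log2 fold change of -0.46 ± 0.12 (95% confidence interval -0.71 to -0.20, edgeR adjusted p = 0.0204).

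Hsph1, the HSP110 that recharges HSP70, was 98.4, 38.3, 82.6, 50.3 and 74.9 CPM in the chow mice. It was 65.1, 35.2, 44.8, 62.4 and 42.1 CPM in the fishmeal mice, 30.8 to 46.7 with a median of 43.9 in the salmon mice and 42.4, 47.3, 38.9 and 58.6 CPM in the beef mice. Each of the 15 HFD-fed mice lay below the chow median of 74.9 CPM. Hsph1 fell in HFD versus chow by 0.60 on the log2 scale (SE 0.17, 95% confidence interval -0.95 to -0.25), with an edgeR adjusted p of 0.0272. In edgeR these 2 were the only members called, out of 9 tested, beside 9.75% of all genes in the same fit. DESeq2 called both and Atf3, beside 2161 of 17120 genes. Leaving out chow mouse 1, which had the highest value for both genes, raised the edgeR adjusted p to 0.170 for Hsph1 and 0.150 for Dnajb1. It was 0.0571 and 0.0504 without chow mouse 10, and 0.0771 and 0.0373 without chow mouse 5.

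Hspa1b, an inducible HSP70, was 1.56, 0.993, 1.74, 1.63 and 1.63 CPM in the chow mice and 1.54, 0.678, 0.712, 0.331 and 0.735 CPM in the fishmeal mice. Salmon mice had 0.453 to 1.56 CPM with a median of 0.781, and beef mice 0.689, 3.92, 1.21 and 1.21 CPM. The highest value was that of mouse 35, the library with fewer counts on protein coding genes, a relation that was not tested. Hspa1b was not called in HFD versus chow, at a log2 fold change of -0.47 ± 0.37 and an edgeR adjusted p of 0.473. Without mouse 35, Hspa1b stood at -0.76 with an edgeR adjusted p of 0.0731, still not called. Its twin Hspa1a lay at 0.0176 to 0.285 CPM in the chow mice and at up to 0.179 CPM in the HFD-fed mice. It had 0 counts in mouse 32, where a count of 0 allows up to 0.0530 CPM, and it was removed by the filter on low counts. Of the 50-base stretches in the annotated Hspa1b transcript, 62.3% also occur in Hspa1a, and 58.8% of those of Hspa1a occur in Hspa1b, so that reads may have been lost or divided between the 2 genes and both levels are uncertain. The other 8 members shared at most 0.38% of such stretches with any other gene on the same strand.

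**Figure D3:**
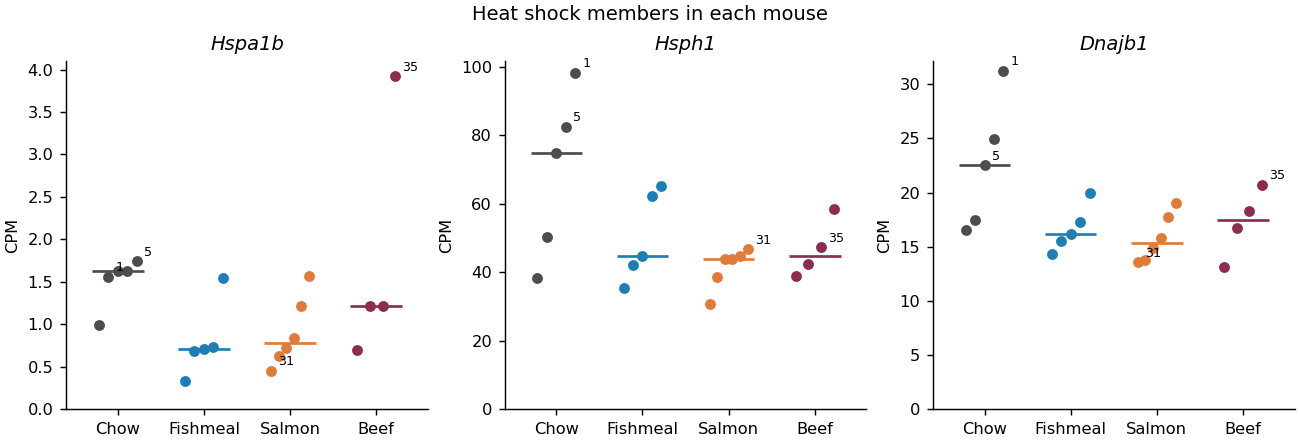
CPM on a linear axis of Hspa1b, Hsph1 and Dnajb1 in each mouse (points) by diet group, with lines at group medians and numbers beside mice 1, 5, 31 and 35. All HFD-fed mice lie below the chow median of 74.9 CPM for Hsph1 and 22.5 CPM for Dnajb1, and mouse 35 stands alone at 3.92 CPM for Hspa1b.

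With edgeR and no covariate, no member was called when each HFD group was set against the same 5 chow mice. In fishmeal versus chow, 0 of 9 members tested were called by edgeR or DESeq2, where edgeR called 3.38% of 16471 genes and DESeq2 called 1175. Before adjustment, 3 members and 2778 genes had an edgeR p under 0.05. Salmon versus chow also gave 0 calls in edgeR, with 4.46% of 16605 genes called. An unadjusted edgeR p under 0.05 was found for 3 members and 3574 genes. DESeq2 called 2 members and 1485 of the 16605 genes. Beef versus chow had 0 members called by either tool, with 2.48% of 16559 genes called by edgeR and 1122 by DESeq2. In edgeR, 2 members and 2953 genes were under 0.05 before adjustment. The log2 fold change of Hsph1 was -0.47 for fishmeal, -0.74 for salmon and -0.56 for beef, with edgeR adjusted p of 0.367, 0.0572 and 0.253. For Dnajb1 the values were -0.44, -0.52 and -0.39, at 0.184, 0.0798 and 0.315. DESeq2 gave adjusted p of 0.00963 for Hsph1 and 0.0310 for Dnajb1 in salmon versus chow. Fos was lower by 2.29, 2.15 and 1.62 on the log2 scale in fishmeal, salmon and beef, with SE of 1.161, 1.02 and 1.196 and no call.

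No difference between the protein sources was detectable for any member at this number of mice. Between fishmeal and salmon, edgeR called 0 of 9 members and 0.157% of 16548 genes, and 0 members and 702 genes had an unadjusted p under 0.05. Fishmeal versus beef gave 0 called members and 0.00607% of 16480 genes. Before adjustment 384 genes were under 0.05, among them 1 member, Hspa1b, at a log2 fold change of -1.127 (95% confidence interval -2.24 to -0.01). Salmon versus beef gave 0 called members and 0 of 16509 genes (0.0%), and again 0 members under 0.05 before adjustment, while 613 genes were under 0.05 before adjustment and DESeq2 called 2 genes. DESeq2 called 0 members in each of these 3 comparisons. The intervals were wide, and for Fos they ran from -2.36 to 1.03 in fishmeal versus beef, from -1.69 to 1.44 in fishmeal versus salmon and from -2.02 to 0.94 in salmon versus beef. Counting mouse 31 as beef left 0 members called in each comparison that it entered.

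Spread between mice of 1 group was wide for the immediate early members. The biological coefficient of variation, estimated by edgeR within the 4 groups, was 102% for Fos, 78.4% for Egr1, 74.7% for Junb, 71.6% for Jun, 55.9% for Ier2 and 46.8% for Atf3. The median over 17360 genes was 19.4%, and these members stood between the 95.6th and 99.9th percentiles. Hspa1b, at 44.7%, stood at the 94.6th percentile, while Hsph1 at 24.0% and Dnajb1 at 18.3% lay at the 65.2nd and 45.4th. Without chow mouse 5, whose high values were known when the members were chosen, the 5 members other than Atf3 had 51.6% to 96.1% and stood between the 97.2nd and 99.8th percentiles, while Atf3 had 35.8% and stood at the 87.9th. The members that were called by edgeR in HFD versus chow thus had a spread near that of the median gene, and those that were not called had a larger one.

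Single mice stood at the top for several members at once. Chow mouse 5 was the highest of all 20 mice for 6 of 6 immediate early members and for 0 of 4 heat shock members, where 3.15% of all genes tested had their highest value in this mouse. These values were known when the members were chosen, so the count is a description. It exceeded the median of the other chow mice 28.1-fold for Fos, 7.18-fold for Jun, 6.68-fold for Junb, 4.58-fold for Ier2, 4.51-fold for Atf3 and 2.44-fold for Egr1. Salmon mouse 23 was among the 5 highest for 6 members, beef mouse 39 for 5, chow mouse 10 for 4, and fishmeal mouse 20 and beef mouse 35 for 3 each. At the other end, mice 16 and 32 were among the 5 lowest for 5 members and chow mouse 1 for 4. Chow mouse 1 was at the same time the highest of 20 for Hspa1a, Hsph1 and Dnajb1. Mice among the 5 highest for 3 or more members occurred in every diet group, and mice among the 5 lowest for 3 or more in the chow, fishmeal and beef groups.

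The immediate early members rose and fell together from mouse to mouse, with the exception of Atf3. With group means removed, the log2 CPM of all 10 pairs among Fos, Jun, Junb, Egr1 and Ier2 were correlated over the 20 mice, with Pearson's r from 0.72 for Jun and Egr1 to 0.92 for Junb and Ier2. For Fos and Junb, r was 0.91 (p = 2e-05, adjusted p = 0.00015) and Spearman's rho was 0.91 (p = 4e-05, adjusted p = 0.0003), from 100000 two-sided permutations within groups adjusted over 45 pairs. For Fos and Egr1, r was 0.85 and rho was 0.91, both with a permutation p of 1e-05, the smallest these permutations can give. Without the 2 mice farthest from the median of the first gene, the 10 values of r lay between 0.70 for Jun and Egr1 and 0.87 for Junb and Ier2. Atf3 had r of -0.01 to 0.48 with the other 5, none called, and without the 2 farthest mice its r ran from -0.33 with Jun to 0.64 with Ier2.

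Among the heat shock members, Hsph1 and Dnajb1 were correlated, with r of 0.75 (permutation p = 0.00167, adjusted p = 0.00751) and rho of 0.71 (permutation p = 0.00268, adjusted p = 0.0110), and r was 0.62 without the 2 farthest mice. The other 5 pairs had r of 0.20 to 0.52 and were not called. None of the 24 pairs that joined an immediate early with a heat shock member was called, with r from -0.38 to 0.48. In all, 11 of 45 pairs were called, and 11 were called again without chow mouse 5. Pairs of other genes were not tested, so the share called among them is not known. The points share their libraries, and the permutation p-values take each mouse as independent.

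**Figure D4:**
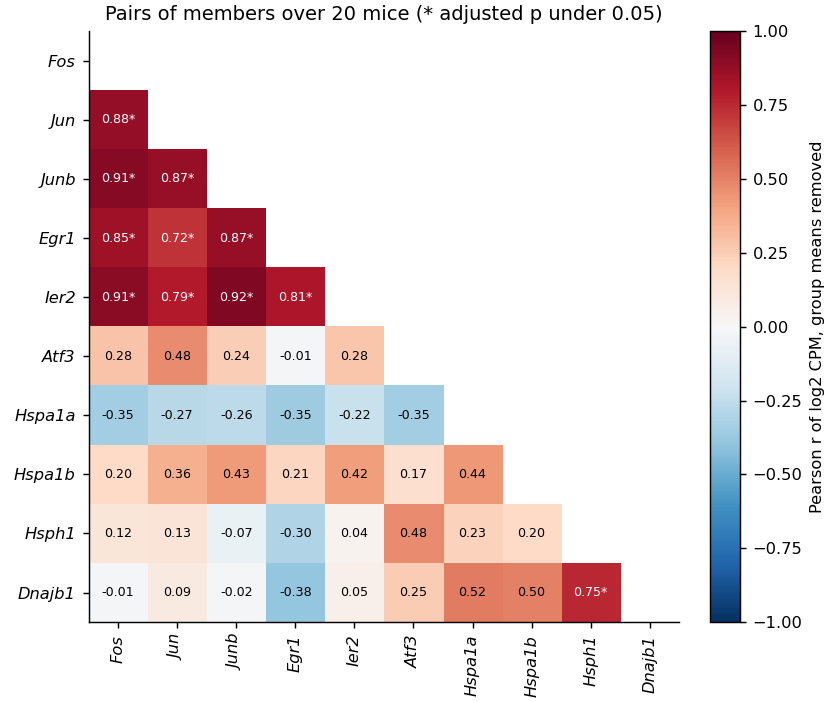
Pearson's r of log2 CPM with group means removed for the 45 pairs of members over 20 mice (colour and number, with a star at an adjusted permutation p under 0.05). Fos, Jun, Junb, Egr1 and Ier2 form 1 block with r of 0.72 to 0.92, and Hsph1 with Dnajb1 is the only other starred pair at 0.75.

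Genes of the circadian clock differed between the chow and HFD-fed mice and varied within the groups. A clock score was taken in each mouse as the mean log2 CPM of Dbp, Tef, Nr1d1, Nr1d2, Per3 and Ciart minus that of Arntl, Npas2, Clock and Cry1, which peak at the opposite phase. It was -3.31 to -0.96 in chow mice and -2.23 to 4.01 in HFD-fed mice, and mouse 5 had the highest score of the chow mice. Within groups, the score was related to Junb with r of 0.64 (permutation p = 0.00179) and rho of 0.68 (permutation p = 0.00111). Adjusted over 17360 genes, the p-values were 0.0936 and 0.0787, so Junb was not called, and 155 genes were called for r. Without the 2 mice of the most distant scores, r was 0.72, and within the HFD-fed mice alone it was 0.66.

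The other immediate early members had r of 0.51 for Jun, 0.46 for Fos, 0.39 for Egr1, 0.39 for Ier2 and 0.06 for Atf3, with rho of 0.47, 0.48, 0.42, 0.31 and -0.12. Their permutation p-values for r were 0.0259, 0.0211, 0.0723, 0.0481 and 0.791, and adjusted over all genes none was under 0.267. For rho they were 0.0368, 0.0248, 0.0638, 0.156 and 0.630. Over all genes, 14.6% had a permutation p under 0.05 for r. Hsph1 and Dnajb1 had r of -0.08 and 0.16, neither called. This relation was examined after the data had been seen.

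With the clock score as a covariate, the log2 fold change in HFD versus chow was -2.99 for Fos, -1.77 for Jun, -1.53 for Junb, -2.07 for Egr1, -1.48 for Ier2 and -1.08 for Atf3, and edgeR called none, with adjusted p of 0.0687 to 0.290. In the same fit Hsph1 was at -0.58 and Dnajb1 at -0.54, with edgeR adjusted p of 0.271 and 0.123, and 286 genes were called in place of 1669. In fishmeal versus chow, edgeR with this covariate called 1 member, neither Hsph1 nor Dnajb1, and 50 of 16471 genes. The diet groups differed in clock score, so diet and clock phase cannot be told apart for these genes.

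**Figure D5:**
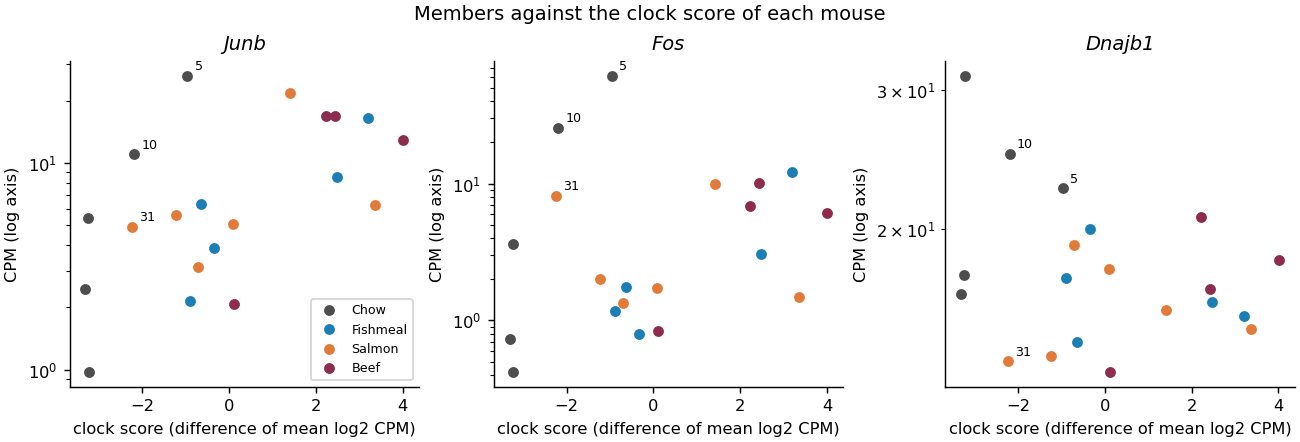
CPM on a log axis of Junb, Fos and Dnajb1 against the clock score of each mouse (points, coloured by diet group, with numbers at mice 5, 10 and 31). Chow mice lie at scores of -3.31 to -0.96, and within the groups Junb is higher at higher scores (r = 0.64) while Dnajb1 shows little relation (r = 0.16).

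Genes that belong to the same pathways were examined in HFD versus chow as lists. Over all 17120 genes tested in this comparison, edgeR called 9.75%, and 5.21% as lower. Of 9 other AP-1 and EGR transcription factors tested, 0 were called in HFD versus chow by edgeR or DESeq2, with a median log2 fold change of -0.11. Fosb, a close relative of Fos, was 4.93 CPM in mouse 5 against 0.228 as the median of the other chow mice. Its log2 fold change was -1.47 with mouse 5 (edgeR adjusted p = 0.0787) and 0.97 without it (edgeR adjusted p = 0.0395), a change of direction that came with leaving out 1 mouse. Maff, a small partner of AP-1, stood at 0.93 with an edgeR adjusted p of 0.159.

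Of 34 other immediate early genes, 5 fell and 0 rose in edgeR, with a median of -0.03, where 5.21% of all genes tested fell. Without chow mouse 5, 2 fell and 2 rose, with a median of 0.13, where 825 of 17320 genes fell and 693 rose. Myc, the growth-related transcription factor, fell by 1.69 on the log2 scale (edgeR adjusted p = 0.000255) and kept its call in 20 of 20 fits that each left out 1 mouse. It was 2.76 to 12.6 CPM in the chow mice and 0.974 to 3.72 CPM in the HFD-fed mice. Gadd45b, a stress gene that binds growth arrest partners, fell by 1.318 (edgeR adjusted p = 0.00766), the kinase gene Sik1 by 0.78 (0.0279) and Ier3 by 0.76 (0.0420). Sik1 kept its call in 17, Gadd45b in 19 and Ier3 in 8 of the 20 fits. Without mouse 5 the edgeR adjusted p was 0.117 for Gadd45b, 0.0850 for Sik1 and 0.0551 for Ier3, and 0.000631 for Myc. Of 13 genes upstream of the immediate early genes, 1 rose, the kinase gene Rps6ka1, by 0.61 on the log2 scale (edgeR adjusted p = 0.0156). Over all genes tested, 777 of 17120 rose.

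Mouse 5 was the highest of 20 for 8 of 34 other immediate early genes and 2 of 10 other AP-1 and EGR factors. It was also highest for 3 of 12 glucocorticoid responsive genes and 3 of 26 other cytosolic heat shock genes. For genes tied to ATF4 and ATF3 the count was 2 of 10, and for endoplasmic reticulum chaperones 1 of 14. The other companion lists had 0. Of all genes tested, 3.15% were highest in this mouse. After Fosb, the largest excesses over the median of the other chow mice were 15.7-fold for the nuclear receptor Nr4a1, at 19.6 CPM, and 8.76-fold for the antiproliferative gene Btg2, at 99.3 CPM. Igfbp1, a secreted protein of fasting liver, was 5.59-fold higher, Gadd45b 3.82-fold and Egr2 3.58-fold.

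The wider heat shock response was measured in 25 other cytosolic chaperones and co-chaperones that passed the filter. Of these, 3 fell and 0 rose, with a median log2 fold change of -0.18, where 5.21% of all genes tested fell. The fallers were Bag3, a co-chaperone of HSP70, by 0.56 (edgeR adjusted p = 0.0272), Dnaja4, an HSP40, by 0.54 (0.00634) and Chordc1, a co-chaperone of HSP90, by 0.41 (0.0146). Without mouse 5 each had an edgeR adjusted p under 0.05, at 0.0460, 0.0158 and 0.0480. Dnaja4 was 4.43 to 5.73 CPM in chow mice and 2.45 to 4.60 CPM in HFD-fed mice, and it kept its call in 20 of 20 fits that left out 1 mouse, against 19 of 20 for Bag3 and Chordc1. With the clock score as a covariate, 0 of these 25 genes and 286 of all 17120 genes were called. Among 6 heat shock factors and cold-induced genes, Hsf2 fell by 0.23 (edgeR adjusted p = 0.0297). None of 8 mitochondrial chaperones was called in edgeR, while DESeq2 called 1, Hspd1, at an edgeR log2 fold change of -0.26 and an edgeR adjusted p of 0.0538. Hspa9, the mitochondrial HSP70, stood at -0.19 (edgeR adjusted p = 0.274).

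Genes of other stress pathways were called in both directions. Over all genes tested in edgeR, 777 of 17120 rose and 892 fell. Of 14 endoplasmic reticulum chaperones 1 fell, Dnajb9, by 0.58 (edgeR adjusted p = 0.0347). Of 10 genes tied to ATF4 and ATF3, Chac1, which degrades glutathione, rose by 2.22 (edgeR adjusted p = 0.00626), the pseudokinase gene Trib3 rose by 1.04 (0.0484), and Atf4 itself fell by 0.42 (0.0347). Leaving out each of the 20 mice in turn, Chac1 was called in 20, Trib3 in 6, Atf4 in 14 and Dnajb9 in 16. None of 12 glucocorticoid responsive genes was called in edgeR, and DESeq2 called 1, Per1, with an edgeR log2 fold change of 1.128 and an edgeR adjusted p of 0.0908. Mt2, a metallothionein gene, stood at 2.60 with an edgeR adjusted p of 0.125. Of 16 clock genes 9 rose and 2 fell, led by Dbp at 4.70, Ciart at 3.29, Per3 at 2.62 and Tef at 1.80 on the log2 scale, with edgeR adjusted p of 0.00423, 0.0282, 0.0169 and 0.00417. Of 11 acute phase genes 4 rose and 0 fell, namely Saa2 by 3.08, Lcn2 by 2.95, Saa1 by 2.71 and Hp by 0.79, with edgeR adjusted p of 0.0217, 0.0315, 0.0296 and 0.0495. Without mouse 5, 1 of the 11 was called, beside 1518 of 17320 genes. Of the 20 fits that left out 1 mouse, Saa2 kept its call in 17, Lcn2 and Saa1 in 16 and Hp in 6. With the clock score as a covariate, 0 genes of the ATF4 and acute phase lists and 286 of all 17120 genes were called. The log2 fold change in that fit was 1.06 for Chac1 and 0.20 for Trib3.

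Markers of other liver cells were compared beside the members, since a bulk sample cannot tell fewer cells of a type from less RNA per cell. In HFD versus chow, 4 of 4 B cell markers and 2 of 4 T cell markers fell, with summed levels of 4.56 to 11.1 and 1.94 to 3.61 CPM in chow mice and 1.60 to 4.49 and 0.931 to 2.40 CPM in HFD-fed mice. None of 5 hepatocyte, 5 Kupffer cell or 6 stellate cell markers was called in edgeR, and neither were the 2 of 6 neutrophil markers that were tested. The summed Kupffer cell markers were 150 to 389 CPM in chow mice and 144 to 292 CPM in HFD-fed mice, with mouse 5 at 150 CPM. Of 5 red blood cell markers 1 rose, and their sum was 73.6 to 212 CPM in chow mice, lowest in mouse 5, and 84.5 to 482 CPM in HFD-fed mice. Of 6 sinusoidal endothelial markers 1 fell, of 5 cholangiocyte markers 1 fell, and the 1 exocrine pancreas marker that was tested rose. Of 4 adipocyte markers, 3 stayed under 0.5 CPM in every mouse. Over all genes tested, edgeR called 9.75%, and 5.21% as lower. The part of cell composition in the values of the members was not tested.

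The genes whose levels followed the members most closely were sought among 11498 protein coding genes with a mean of at least 1 CPM. By Spearman's rho over the 20 mice with the mean log2 CPM of the 6 immediate early members, the first 5 were Zfp36 (0.93), Stat6 (0.91), Foxa3 (0.88), Dcaf8 (0.85) and Helb (0.84). Zfp36, which encodes an RNA-binding protein that shortens the life of immediate early transcripts, ran from 50.6 to 341 CPM and was highest in mouse 5. Stat6, a signal transducer of interleukin-4, ran from 52.3 to 82.4 CPM. Without mouse 5 the 5 values of rho were 0.92, 0.89, 0.86, 0.82 and 0.82. None of the 5 was called in HFD versus chow in edgeR, with adjusted p of 0.344 to 0.990. For the 4 heat shock members, the first 5 were Ears2 (0.81), Farsa (0.80), Reep5 (0.78), Ppap2a (0.73) and Bysl (0.73). This mean includes Hspa1a at 0 to 19 counts, and without Hspa1a only Farsa and Bysl remained among the first 5, with Ears2, Ppap2a and Reep5 at places 14, 39 and 46. Ears2 and Farsa encode aminoacyl-tRNA synthetase proteins, and Bysl encodes a ribosome assembly factor. Reep5 fell by 0.36 and Bysl by 0.36 in HFD versus chow, with edgeR adjusted p of 0.0348 and 0.0486. These correlations share the libraries of the members and are descriptions over 20 mice.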

How the data were processed

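Liver mRNA libraries were strand-specific, and both ends were read for 50 bases. The authors trimmed reads with BBDuk, mapped them with HISAT2 1.2.1 and counted them per gene with featureCounts 1.4.6-p1 (versions per the submitters' processing notes). The deposited tables hold raw counts and TPM for 55487 Ensembl genes. Whether strand was used in counting, and what was done with reads matching more than 1 gene, is not given in the sources used here. Jun overlaps Junos, Junb overlaps Prdx2, Atf3 overlaps Gm24748 and Hspa1a overlaps Gm20481, each on the other strand. If strand was not used in counting, reads from the shared stretches cannot be told apart, which are 5.83% of the Jun, 5.76% of the Junb and 16.2% of the Hspa1a transcript and none of the Atf3 transcripts. Positions are on GRCm38, on which 55141 gene identifiers were found in GENCODE M21, while the methods print GRCh38 for the mouse genome.

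Counts were analysed with edgeR 4.0 in R 4.3 (TMM scaling, a filterByExpr minimum of 10 counts, quasi-likelihood tests, Benjamini-Hochberg adjustment over all genes tested). The study used DESeq2, which was run here (1.42) as an alternative, as was limma 3.58 on log2(TPM + 1) and log2(TPM + 0.1). In HFD versus chow the 3 HFD groups were pooled. Log2 CPM used a prior count of 2. The 20 libraries held 42526234 to 70266136 counts, and the 41 pairs within groups had a chi-square per gene of 35.1 to 457, so none was counted as 1 sample. A count of 0 was read as up to 3 counts, which covers counting error only. Fits were first checked on simulated counts in which 200 genes changed, and correlations on simulated normally distributed values. The simulated counts had the same spread for every gene, smaller than that of the immediate early members, so that check does not cover genes that vary as widely. Other alternatives were DESeq2 size factors, no filter, a fit on all 4 groups, the clock score as a covariate, mouse 31 as beef or left out, and each mouse left out in turn. The correlation with the clock score, the spread without mouse 5 and the likeness without Hspa1a were added after seeing the data.

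The 10 members and the lists of companion and marker genes were chosen with earlier results of these data known. All members are named. From each companion list the 4 called genes with the largest log2 fold change are named, or the 2 with the smallest p where none was called. Up to 6 companion genes highest in chow mouse 5, and the 5 genes most like each set of members, are named too. Groups follow the sample labels. The replicates carry individual mouse numbers, which pair no samples.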

Additional observations from a re-analysis of the deposited data

Results flagged for a closer look

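In each diet group and for each member, 40 sets of values in all, the gap between the most extreme mouse and its nearest neighbour was divided by the range of the group and compared with Dixon's 95% limit. It was exceeded in 10 sets, with mouse 31 counted as salmon. For normally distributed values chance gives about 1 in 20, but CPM values are skewed (9 of the 10 are highest mice) and the members vary together, so the chance rate for these sets is not known.

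In the chow group, mouse 5 stood apart for Jun, at 63.9 CPM against 16.5 in the next mouse, and for Atf3, at 5.76 CPM against 1.92, a mouse whose high values were known beforehand. In the fishmeal group, mouse 20 stood apart for Fos, at 12.1 CPM against 3.06, and for Jun, at 30.1 CPM against 9.42. In the salmon group, mouse 23 stood apart for Jun (40.8 CPM against 11.8), Junb (21.8 CPM against 6.28), Ier2 (15.7 CPM against 8.998) and Atf3 (2.95 CPM against 1.266). Hspa1b was lowest in chow mouse 2, at 0.993 CPM against 1.56, and highest in beef mouse 35, at 3.92 CPM against 1.21. The Fos value of chow mouse 5 was not beyond the limit, since mouse 10 was high as well. Fos in salmon mouse 23 was 9.96 CPM, followed by 8.15 CPM in mouse 31, whose group is in doubt, and 2.01 CPM in mouse 22. This set was not recomputed with mouse 31 in beef.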

How the results depend on the processing

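Of 628 values recomputed under an alternative, 578 kept their direction and their side of the threshold, or stayed within 1.5 times. Of the 628, 368 came from leaving out 1 mouse. A fold change that shrank but was never called counts as kept, such as Fos at -0.76 and Atf3 at -0.28 without chow mouse 5. Fos at -0.77 in limma on log2(TPM + 1) counts as kept too. In HFD versus chow, 2 members were called, beside 1669 of 17120 genes. DESeq2 called 3, beside 2161 genes, and the fit with the clock score as a covariate called 0, beside 286. When 1 mouse was left out, 0 to 3 members were called. In fishmeal versus chow the count rose from 0 to 1 with the clock score as a covariate, beside 50 of 16471 genes. It was 0 to 1 when 1 mouse was left out (Hspa1b without mouse 12). In salmon versus chow it rose from 0 to 1 on all genes with at least 1 count and in the fit on all 4 groups. It rose to 2 in DESeq2, which called 1485 of 16605 genes, and was 0 to 1 when 1 mouse was left out (1 without chow mouse 2). Other comparisons kept 0 called members in each alternative run. Junb turned to 0.24 in limma on log2(TPM + 1), filtered or not, and to 0.33 on log2(TPM + 0.1), and ran from -0.35 to 0.84 when 1 mouse was left out, while Jun ran from -0.94 to 0.35. Fosb turned to 0.97 without chow mouse 5. Companion genes called were 29 of 157 tested, against 24 without chow mouse 5 and 36 in DESeq2. Over all genes tested, the main fit called 9.75%, or 1669 of 17120. The fit without chow mouse 5 called 1518 of 17320 and DESeq2 called 2161 of 17120. Called pairs were 11, against 10 on log2(TPM + 1), 10 without the 2 farthest mice and 11 without chow mouse 5. The correlation with the clock score, chosen after seeing the data, turned to -0.17 for Atf3 without chow mouse 5 and to -0.18 in HFD-fed mice alone, and to 0.19 for Hsph1 without the 2 farthest mice. No paired analysis was possible because the labels share no replicate numbers between groups. Depth limits Hspa1a, at 0 to 19 counts, and the 5 chow mice limit every comparison with chow.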
